A study of Mus musculus with 15 samples.

Results

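Distal exonic H3K27ac peaks are peaks that lie away from promoters and whose highest point, the summit, falls in an exon. They were taken from the only peak list analyzed here, that of the library MCP H3K27ac replicate 5, in 2 steps. First, a peak was left out if it overlapped a RefSeq start site of mm10 or the 2 kb before or after it. Second, the summit had to lie in an exon of a curated RefSeq transcript. This left 3072 of 122375 peaks, or 2.51% of the list and 3.21% of its 95604 distal peaks. Of the 3072 peaks, 1169 had their summit in coding sequence, 1612 in a 3' untranslated region, 262 in an exon of a noncoding transcript and 29 in a 5' untranslated region.

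The tumors model fusion-positive rhabdomyosarcoma (FP-RMS), a cancer of soft tissue with features of muscle, and express the fusion oncogene PAX3-FOXO1 (P3F). The study asked how H3K27ac differs between tumors begun from myogenic cells (MCP) and from endothelial cells (TCP). The labels list 15 libraries, and whether this library was among those compared is not known. MCP mice carried Myf6-Cre, conditional Cdkn2a(Flox/Flox) alleles, Pax(3P3F/P3F) alleles and the R26-tdTom reporter, and in TCP mice Tek-Cre took the place of Myf6-Cre. The 8 other H3K27ac libraries (5 MCP, 3 TCP) and the 6 IgG libraries were not analyzed on their own here, so there were no replicates and no comparison of tumor types. The label gives the library's genotype and antibody but not the age of the mouse or the number of animals, and live cells were sorted on DAPI. Myf6-Cre acts in myogenic cells, so the tumor models 1 lineage of origin. Of 14 myogenic marker genes, Myf6 and Pax3 had a promoter peak, both of them loci named in the genotype, and Myod1, Myog, Myf5 and Des had none. Promoter peaks were also present at 1 of 14 endothelial, 2 of 14 immune and 3 of 10 fibroblast markers. Of all 21000 protein-coding genes 45.6% had one, a share above that of each of these 4 lists.

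H3K27ac is acetylation of lysine 27 on histone H3, placed by the acetyltransferases p300 and CBP at active promoters and enhancers. Enhancers bind transcription factors such as AP-1, a dimer of FOS and JUN proteins, and act on promoters at a distance. Most lie in introns or between genes, but some lie in exons, where the same bases both encode a protein and bind transcription factors. In CUT&RUN an antibody tethers a nuclease to the chromatin, which releases the DNA beside the mark, and IgG gives the background.

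The 6 coding exon peaks of highest fold enrichment are shown first. The share of the peak's bases in exons was 100% in Dpf2 and 91.1% in Fst. It was 7.75% in Pik3ca, 10.4% in Atad1, 4.70% in Hbs1l and 19.6% in Tm4sf1. These last peaks thus lay mostly outside exons, with only the summit in coding bases. Each line gives 30 bases of the mm10 reference around the summit, read 5′ to 3′ on the coding strand of the host gene, with the codon at the summit in capitals. In Hbs1l that codon is split by an intron, so that only its last bases are in capitals.
Dpf2: tgctgaacgtagtGTGcgcctgcctttcct
Pik3ca: cagggttttctgTCCcctctgaatcctgct
Atad1: aatatgaaatgagtATTgctgctcatctag
Hbs1l: ttttatatcctagCCgctcagttcatttac
Fst: tgaacgacaatactCTCttcaagtggatga
Tm4sf1: tgtcttctgcatcGTAgctaatgctttgct

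The first of these is in exon 2 of 12 of Dpf2, a subunit of the BAF chromatin remodeling complex. Its peak (chr19:5907013-5907151) had a fold enrichment of 25.5, the highest of all distal exonic peaks, with 58 fragments over the summit (Poisson 95% interval 44.04 to 74.98). Fold enrichment sets the fragments over a summit against the background around it, which cannot fall below a genome-wide floor. The background of this Dpf2 peak stood at that floor. Fragment numbers were worked out from each peak's fold and p. The summit lay in codon 37 of 405, and the peak was 139 bp wide and wholly inside its exon of 161 bp. The nearest other summit was 5.01 kb away.

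Pik3ca encodes the catalytic subunit alpha of PI3-kinase. Its peak in exon 15 of 21 (chr3:32452954-32454333) had a fold of 17.4 with 43 fragments (31.1 to 57.9), was 1380 bp wide and spanned the 107 bp exon, with its summit in codon 753 of 1068. Pik3ca held 3 further coding exon peaks, with folds of 8.88, 7.24 and 3.79, and a 3' untranslated peak with a fold of 3.50.

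Atad1, which encodes a mitochondrial AAA ATPase that extracts misplaced membrane proteins, had a peak of 2116 bp over exon 3 of 10 (chr19:32701264-32703379, fold 15.6, 35 fragments). Hbs1l, whose product acts in ribosome rescue, had the widest coding exon peak, 2427 bp over exon 3 of 18 (chr10:21303632-21306058, fold 13.0, 29 fragments). Fst encodes follistatin, which binds activin and myostatin, and its peak in exon 2 of 6 was only 123 bp wide (chr13:114456352-114456474, fold 13.0, 29 fragments). Tm4sf1, which encodes a tetraspanin-like membrane protein known from endothelial and tumor cells, had a peak of 1293 bp with its summit in exon 2 of 6 (chr3:57293573-57294865, fold 12.1, 27 fragments). All 6 host genes also had a promoter peak.

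Among the strong 3' untranslated peaks was that of Elavl2, which encodes a neuronal RNA-binding protein, with a fold of 17.5, 48 fragments and a width of 2197 bp (chr4:91251058-91253254). This gene had no promoter peak, but 19 other summits lay within 12.5 kb of that summit. Ap1b1, which encodes an adaptor subunit of clathrin coats, had a fold of 13.8 in exon 23 of 23 and no promoter peak either. Strong peaks were also in Pign (fold 13.6), of GPI anchor synthesis, Ddx51 (13.4), an RNA helicase, and Tenm4 (13.4), a teneurin of the cell surface. These last 3 genes had a promoter peak.

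The strongest 5' untranslated peak was in exon 2 of 17 of Slc37a3, a transporter gene, with a fold of 18.997 and 43 fragments over the summit. This peak was 1386 bp wide (chr6:39372584-39373969), with 5.84% of its bases in exons. St3gal1, a sialyltransferase gene, had a fold of 9.77 and a peak with 5.33% of its bases in exons. Urgcp (7.22), Ifi47 (6.17), which encodes an interferon-induced GTPase, and Ndrg3 (6.08) were lower. Only the first of these 29 peaks reached a fold of 10.

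The highest fold of a noncoding exon peak, 11.2, was below the highest of each other exon class. This class held 262 peaks, against 1169 in coding exons and 1612 in 3' untranslated regions. A fold of 10 or more was reached by 1.53% of noncoding exon peaks, 1.97% of coding exon peaks and 1.43% of 3' untranslated peaks. The Wilson interval of the noncoding share (0.595 to 3.86%) included both others. The highest folds of this class were in the long noncoding RNAs 5430403N17Rik (11.2, 25 fragments, chr8:35864947-35865794), Gm38397 (10.8), Gm14317 (10.8), Mir100hg (10.8) and 4932435O22Rik (9.96). A second peak of Mir100hg had a fold of 9.96. Mir100hg is the host transcript of a microRNA cluster that includes miR-100. No distal exonic peak overlapped an annotated microRNA hairpin of RefSeq. Of the 262 peaks, 231 were in long noncoding RNA genes, 26 in noncoding transcripts of protein-coding genes and 5 in transcribed pseudogenes.

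**Figure D1:**
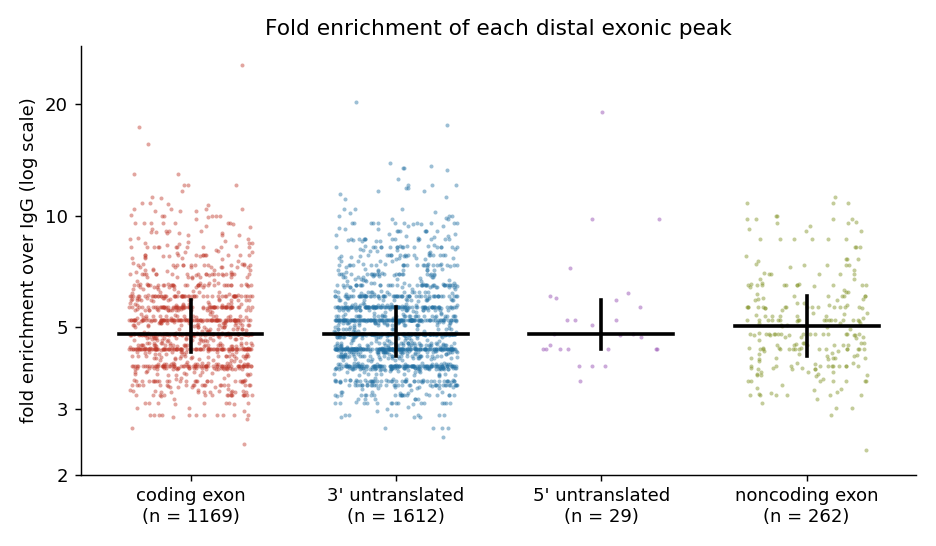
Fold enrichment over IgG (log axis) of each of the 3072 distal exonic peaks by exon class. Points are peaks, horizontal bars medians and vertical bars quartiles; the medians lie between 4.79 and 5.04, and the points of Dpf2 (25.5) and Slc37a3 (18.997) are the highest of their classes.

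Most distal exonic peaks were weak and narrow. The median fold was 4.79 in coding exons (95% interval 4.79 to 4.99), 4.79 in 3' untranslated regions and 5.04 in noncoding exons (4.79 to 5.22). In distal introns it was 5.05 (5.05 to 5.11), and in distal intergenic sequence 5.17 (5.13 to 5.22). The intervals of the coding and the 3' untranslated class lay below those of both. Folds take few values because fragments are few, which gives the horizontal rows of points in the plot of folds by class. Fragments at the summit numbered 11 at the median over all distal exonic peaks, with quartiles of 10 and 14. In coding exon peaks and in distal intronic peaks alike the median was 12 fragments. Of the distal exonic peaks, 91.0% had fewer than 20, against 87.6% of distal intronic and 85.3% of distal intergenic peaks. All these intervals cover counting error only.

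The upper tail was thinner as well. A fold of 10 or more was reached by 1.97% of coding exon peaks (Wilson 95% interval 1.31 to 2.94%) and 1.43% of 3' untranslated peaks (0.953 to 2.13%), and by 3.40% of distal intronic peaks (3.26 to 3.55%). Median widths were 137 bp in coding exons (130 to 143 bp), 140 bp in 3' untranslated regions (135 to 147 bp), 127 bp in 5' untranslated regions and 166.5 bp in noncoding exons (142 to 185 bp), against 158 bp in introns (157 to 160 bp). A width of 1 kb or more was found in 2.05% of coding exon peaks (1.38 to 3.04%), 3.35% of 3' untranslated peaks (2.58 to 4.35%) and 4.91% of intronic peaks (4.74 to 5.09%). The background stood at its genome-wide floor in 51.2% of distal exonic and 50.1% of distal intronic peaks.

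The 51 peaks with a fold of at least 10 were in 51 genes and had a median width of 949 bp. Of these, 24 were at least 1 kb wide and 6 were under 200 bp, among them those in Dpf2, Fst, Il18rap, Parvb and Rsl1d1. In 41 of the 51 the host gene had a promoter peak. The narrow ones were named after their values had been seen.

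Set against the sequence available, coding exons held fewer summits than introns, and 3' untranslated regions about as many. Distal coding sequence came to 28.5 Mb and held 41.1 summits per Mb (Poisson 95% interval 38.8 to 43.5). Distal introns held 64.1 per Mb (63.6 to 64.6), so that the ratio was 0.641 (0.605 to 0.679). Distal 3' untranslated sequence, 24.1 Mb, held 66.9 per Mb (63.7 to 70.3), a ratio of 1.04 (0.994 to 1.10). Noncoding exons held 61.3 per Mb (ratio 0.956, 0.847 to 1.08), the 0.536 Mb of distal 5' untranslated sequence 54.1 per Mb (0.845, 0.588 to 1.21), and intergenic sequence 20.4 per Mb. The interval of the ratio lay below 1 for coding exons and included 1 for each of the other 3 exon classes.

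Coding exons had the lowest density of the 3 large exon classes in genes with and in genes without a promoter peak. In genes with a promoter peak, density was 64.95 summits per Mb in coding exons (61.0 to 69.1), 100.8 in 3' untranslated regions (95.5 to 106.2), 128.0 in noncoding exons (110.7 to 147.3) and 124.7 in introns (123.6 to 125.8). The ratio to introns was then 0.521 for coding exons (0.489 to 0.555) and 0.808 for 3' untranslated regions (0.766 to 0.853). In genes without a promoter peak it was 0.737 (0.637 to 0.852) and 1.14 (1.00 to 1.31), from densities of 13.9 and 21.6 per Mb against 18.9 in introns. The 3' untranslated regions thus lay below introns in genes with a promoter peak and at or just above them in the others. Among the strongest 25% of the list by fold, over all genes, the ratios were 0.486 (0.423 to 0.559) for coding exons and 0.734 (0.648 to 0.831) for 3' untranslated regions.

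**Figure D2:**
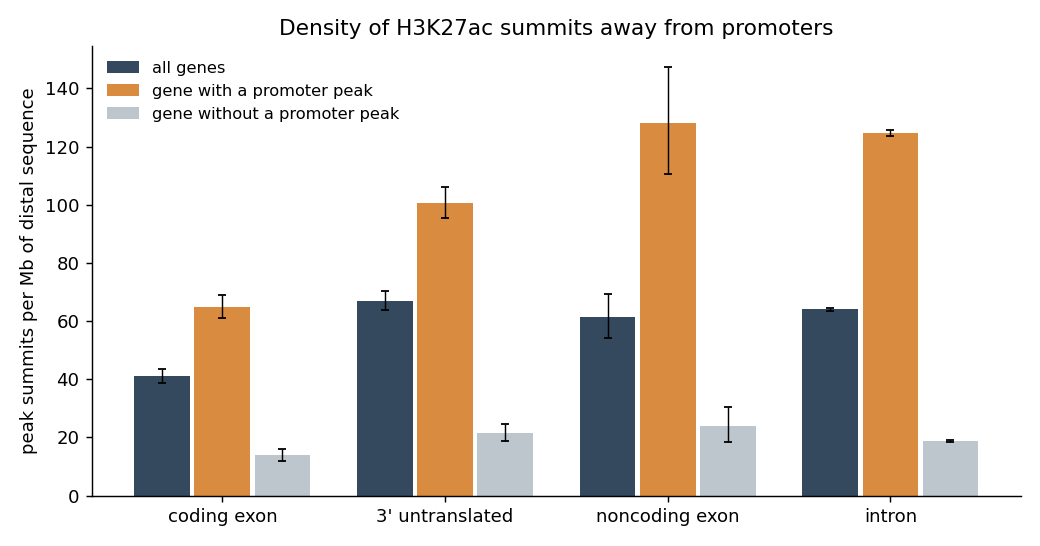
Peak summits per Mb of distal sequence by class of sequence, over all genes and in genes with and without a promoter peak; error bars are Poisson 95% intervals. In genes with a promoter peak, coding exons (64.95 per Mb) stand below introns (124.7 per Mb).

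Masked repeats differed between the classes. Outside the masked repeats of the reference, which left 95.5% of distal coding bases but 70.8% of intronic bases, the ratio was 0.575 (0.542 to 0.610) for coding exons and 0.965 (0.914 to 1.02) for 3' untranslated regions. The 3' untranslated ratio thus changed its side of 1, and it did so as well without chromosomes 1, 6, 11 and 15, at 0.969 (0.910 to 1.031). The setting without repeats was chosen after seeing the data.

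By distance to the nearest start site, coding exons lay below introns in each bin, from 39.8 against 92.3 summits per Mb at 2 to 5 kb to 25.5 (18.6 to 34.1) against 30.1 (29.4 to 30.8) beyond 100 kb, where the intervals overlapped. Between 5 and 100 kb the coding exons held 33.9 to 49.2 per Mb, without a steady fall. The 3' untranslated regions held 85.5 per Mb at 2 to 5 kb, 67.7 at 5 to 10 kb and 36.4 beyond 100 kb. Up to 100 kb these values were below those of introns in each bin, and from 5 to 20 kb the intervals did not overlap, although the ratio over all distances was 1.04. The median distance of the summit to a start site was 18.6 kb for coding exon peaks and 15.5 kb for 3' untranslated peaks, against 24.7 kb for distal intronic peaks.

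**Figure D3:**
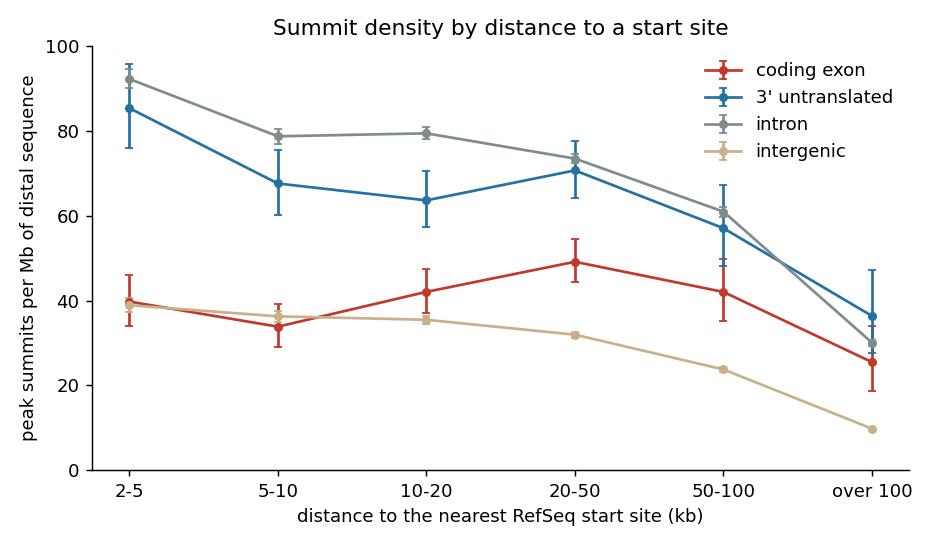
Peak summits per Mb of distal sequence against the distance to the nearest RefSeq start site, for coding exons, 3' untranslated regions, introns and intergenic sequence, with Poisson 95% intervals. Coding exons lie below introns in each bin, at 39.8 against 92.3 per Mb nearest to the start sites.

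Median fold and width were alike on both sides of the edge of the 2 kb window, although folds take few values. The 241 exonic peaks whose nearer edge lay 2 to 3 kb from a start site, just inside the rule, had a median fold of 4.79 and a median width of 145 bp. The 412 peaks at 1 to 2 kb, just outside, had a median fold of 4.79 and a median width of 144.5 bp. Median fragments were 11 just inside the rule and 12 just outside it. The 2624 exonic peaks within 1 kb of a start site had a median fold of 5.55, 15 fragments and a width of 140 bp. The 411 exonic peaks over a start site itself had a median fold of 6.23 and a width of 288 bp.

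Other catalogs place more start sites near these peaks. Of the 1169 coding exon peaks, 35.9% (33.2 to 38.7%) lay within 2 kb of a GENCODE start site, while such windows held 27.6% of distal coding bases. For 3' untranslated peaks the values were 14.6% (12.9 to 16.4%) of peaks and 11.1% of bases, and for introns 15.1% (14.8 to 15.4%) and 10.4%. In coding exons the peaks within and beyond these windows had median folds of 4.79 and 4.83.

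The place of the summit in the exon differed between classes. Of the coding exon peaks, 84.5% were in internal exons, 14.2% in last exons and 1.11% in first exons, and the median host transcript had 15 exons. The coding part of the exon at the summit had a median length of 154 bp (148 to 160 bp), against 126 bp for all 167013 coding exon parts with distal sequence. A longer exon offers more bases, and per Mb the short exons held more summits. Coding exons under 100 bp held 56.3 summits per Mb (48.9 to 64.4), those from 100 to under 150 bp 50.0 (44.9 to 55.6), those from 500 to under 1000 bp 21.6 (16.3 to 28.0) and those of 1000 bp or more 24.3 (19.8 to 29.4). In genes with a promoter peak the shortest exons held 83.0 per Mb (71.3 to 96.1) and the longest 42.5 (34.3 to 52.1), so that the short exons held more there too.

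**Figure D4:**
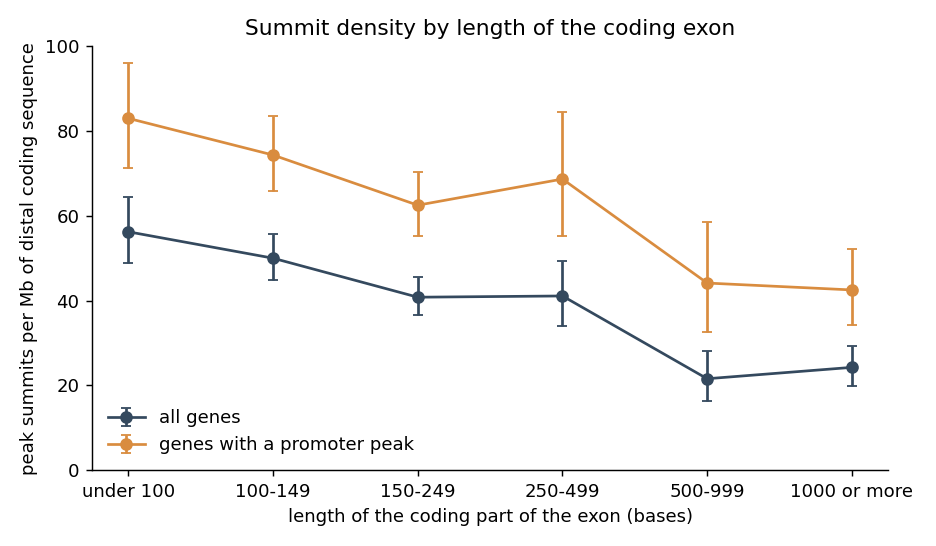
Peak summits per Mb of distal coding sequence by length of the coding part of the exon, for all genes and for genes with a promoter peak, with Poisson 95% intervals. Density is 56.3 per Mb in exons under 100 bases and 24.3 per Mb in exons of 1000 bases or more.

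Distance from the border of the coding part is tied to exon length, since only long exons hold bases far from a border. Bases within 24 of a border held 45.7 summits per Mb (41.2 to 50.6). Those 25 to 49 away held 46.1 (41.2 to 51.5) and those 50 to 99 away 47.1 (41.9 to 52.8), so density was level there. Bases from 200 to under 500 away held 20.9 (15.7 to 27.2). Coding exon peaks were seldom confined to the exon. Only 31.7% lay wholly inside it, 19.1% spanned it, and the median peak had 75.2% of its bases in exons. In 3' untranslated regions, whose median length was 2268 bp at these peaks, 91.1% of peaks lay wholly inside the exon. Within the 3' untranslated regions, density was 56.9 summits per Mb (50.2 to 64.2) in the fifth next to the stop codon and 66.7 to 70.3 in the other four, and their intervals all overlapped that of the first.

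The host genes were mostly active by their promoters. In 83.9% of distal exonic peaks (82.5 to 85.1%) the host gene had a promoter peak, against 83.1% of distal intronic peaks (82.8 to 83.4%). Of all 21000 protein-coding genes 45.6% had one. That last share counts each gene once, while the shares of peaks count a gene with many peaks many times and include noncoding RNA genes. By class the share was 84.0% in coding exons, 86.1% in 3' untranslated regions, 72.4% in 5' untranslated regions and 70.99% in noncoding exons (65.2 to 76.2%), the lowest of the 3 large classes. Of the 907 genes with a coding exon peak, 810 also had distal intronic peaks. The median coding exon peak of the gene was stronger than its median intronic peak in 378 of these genes, weaker in 410 and equal in 22, about as often one as the other. In 133 genes (16.4%) the strongest distal peak of the gene body was in a coding exon and not in an intron. For 3' untranslated peaks, 287 genes were higher, 396 lower and 19 equal, and peaks of 1 gene are not independent of each other.

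Distal exonic peaks came in groups. The nearest other summit was within 1 kb of 74.9% of them, at a median of 479 bp, and 4.69% had no other summit within 12.5 kb. Of 1826 host genes, 1140 held 1 distal exonic peak, 686 held 2 or more and 61 held 5 or more. Neat1, the long noncoding RNA that builds paraspeckles, held the most, 22 in its single exon of 20771 bp, between chr19:5824718 and chr19:5840752. Their folds ran from 3.30 to 6.46 (median 4.37), with 7 to 16 fragments each and widths of up to 428 bp. A string of weak and narrow peaks thus lay along Neat1, with none among the strong noncoding exon peaks.

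Other genes with many such peaks held them in separate exons or in 1 long exon. Tpr encodes a protein of the nuclear pore basket, and its 10 peaks were each in a different coding exon, from exon 9 to exon 51, with folds of 3.64 to 6.58. Of the Tpr peaks, 9 were between 100 and 167 bp wide, and its 44 intronic peaks had a median fold of 4.23 against 4.76 for the exonic ones. Dst, which encodes the giant cytoskeletal linker dystonin, also had 10, of which 6 were in a single exon of 5292 bp, and its strongest lay over exon 37 (fold 8.97, 28 fragments). Mir100hg held 10 as well, 4 in the last exon of a transcript with 3 exons and 6 in that of a transcript with 4, with folds of 3.28 to 10.8.

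Rtn4, which encodes the membrane-shaping protein Nogo, held 9, of which 5 were in its coding exon 3 of 2361 bp with folds of 5.05 to 6.83. Antxr1, the gene of an anthrax toxin receptor, held 9, with 8 in a single 3' untranslated exon of 3503 bp. H13, which encodes a signal peptide peptidase, held 8, and those in the 3' untranslated exon of a short transcript (folds 6.08 to 9.53) were stronger than those at the end of the full-length gene (4.36 to 5.65). Dgki, which encodes a diacylglycerol kinase, and Mdm4, a negative regulator of p53, each held 7 with a highest fold of 9.53. Dgki had no promoter peak. Hnrnpu, which encodes a nuclear RNA-binding protein, also held 7, and its highest fold of 9.18 was in an exon of a noncoding transcript.

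By chromosome, distal exon sequence held most summits on chromosomes 1 (89.5 per Mb), 6 (87.5) and 11 (84.5), where introns also held most (85.8, 85.4 and 101.3). Other autosomes ranged from 35.4 per Mb on chromosome 7 to 61.7 on chromosome 19, and chromosome X held 11.6. Copy number was not measured here, so its part in this was not tested. Without chromosomes 1, 6, 11 and 15 the ratio of coding exon to intron density was 0.609 (0.567 to 0.654), inside the interval of the full value.

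Base composition followed the exon class. In windows reaching 100 bases to either side of the summit, or of the middle of an exon without a peak, the median GC content was 49.3% in coding exon peaks and 49.8% in coding exons without a peak, and 44.3% and 44.8% in 3' untranslated peaks and exons without a peak. Distal intronic peaks had 44.8%. Windows with at least 50% GC and a ratio of observed to expected CpG of at least 0.6, as in CpG islands, made up 5.22% of coding exon peaks, 4.81% of coding exons without a peak and 0.483% of distal intronic peaks.

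The letters of the AP-1 site were more frequent in exonic peaks than in exons without a peak. TGANTCA, searched on both strands, was in 8.81% (7.32 to 10.6%) of windows at coding exon peaks and 4.61% (4.51 to 4.71%) of windows at 163368 coding exons without a peak. In the same host genes, exons without a peak held it in 4.66% (4.31 to 5.03%) of 13308 windows. In 3' untranslated peaks it was in 8.37% (7.12 to 9.83%) and in 3' untranslated exons without a peak in 5.44% (5.10 to 5.79%). Distal intronic peaks held it in 8.59% (8.37 to 8.82%) and intergenic peaks in 9.54% (9.23 to 9.85%). Coding exon peaks thus matched intronic peaks within their intervals, while coding exons without a peak lay below both.

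The letters lay in the coding bases themselves in part of the peaks. Counting only matches wholly within coding sequence, 5.47% (4.31 to 6.93%) of coding exon peaks held one, against 2.71% (2.63 to 2.79%) of coding exons without a peak. Matches outside it were in 3.59% (2.67 to 4.82%) and 1.94% (1.88 to 2.01%). Coding sequence made up 66.6% of window bases at peaks and 63.9% at exons without a peak. Per Mb of such bases, windows with a match at peaks numbered 408.8 inside coding sequence and 535.6 outside it. At exons without a peak they numbered 210.8 and 267.6, so matches were denser outside coding sequence in both sets. A match describes letters only and is not a shown binding site. The 6 coding exon peaks of highest fold with a match in the window are given here in 30 bases of mm10 on the coding strand, with the 7 matching bases in capitals.
Hbs1l: taattctctttTGAATCAccaattaagtga
Zscan22: ggtggaggataTGACTCAactgctggacag
Gmnn: ctggataacttTGAATCAccggatagtcag
Slc13a2: gaatgtgtctcTGATTCAcattggcttgcc
Lrrfip1: tgacttctctcTGATTCActtgtgctgctc
Traf3ip2: gtggaggttgaTGAATCAgaaccattcccg

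The match was in coding sequence in Hbs1l, Zscan22, Gmnn and Traf3ip2 and in flanking sequence in Slc13a2 and Lrrfip1. In Traf3ip2, which encodes an adaptor of interleukin-17 signaling, it lay 3 bases downstream of the summit, the closest of the 6, in exon 2 of 9 (fold 9.53, 21 fragments, peak 862 bp). Gmnn encodes geminin, an inhibitor of replication licensing, and its match lay 49 bases upstream of the summit in the last of 7 exons (fold 10.7, 25 fragments, peak 1067 bp). The matches of Hbs1l and Zscan22, a zinc finger gene, lay 86 and 92 bases downstream of their summits.

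**Figure D5:**
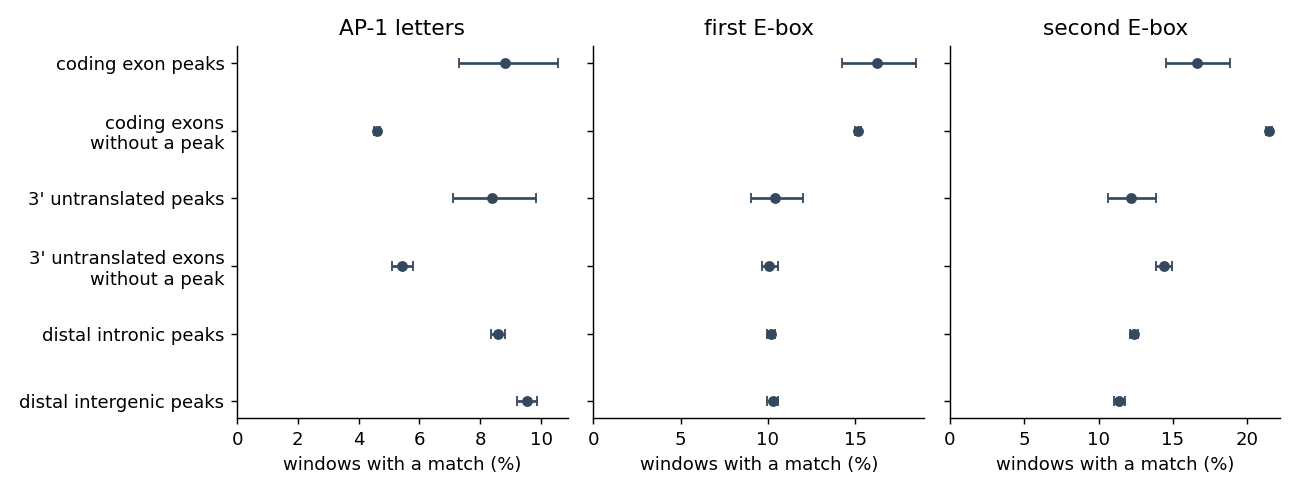
Share of sequence windows with a match to the AP-1 letters and to the first (CAGCTG) and second (CACCTG) E-box, in peaks and in exons without a peak, with Wilson 95% intervals. AP-1 letters are at 8.81% in coding exon peaks and 4.61% in coding exons without a peak.

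Most other letters did not follow the same pattern. The E-box CAGCTG, which MYOD1 and its relatives bind, was in 16.3% (14.2 to 18.5%) of coding exon peaks and 15.1% (14.98 to 15.3%) of coding exons without a peak. The E-box CACCTG was less frequent in coding exon peaks, at 16.6% (14.6 to 18.8%) against 21.5% (21.3 to 21.7%), and in 3' untranslated peaks, at 12.2% (10.7 to 13.8%) against 14.4% (13.9 to 14.9%). For TEAD (GGAATG), RUNX (TGTGGT), ETS (CCGGAA), forkhead (TGTTTAC) and homeodomain (TAATTA) letters, the interval of coding exon peaks included the share in coding exons without a peak. The same held in 3' untranslated peaks except for ETS. Its letters were in 2.73% (2.04 to 3.64%) of these peaks against 2.03% (1.82 to 2.25%) of 3' untranslated exons without a peak, with intervals that overlapped.

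Of all protein-coding genes, 8.16% held a distal exonic peak, 4.32% in a coding exon and 4.61% in a 3' untranslated region, and the gene lists are read against these shares. The lists differ in gene length and in promoter activity, whose part was not tested. Large cytoskeletal proteins had the highest share, 12 of 26 genes (46.2%, 28.8 to 64.5%). Besides Dst these included Sptb (fold 7.04) and Sptbn1 (5.88), which encode beta spectrins, Ahnak (6.40), Syne2 (6.08), a nesprin of the nuclear envelope, and Tln2 (5.56), a talin. Of the same 26 genes, 25 had a distal intronic peak and 20 a promoter peak, against 29.6% and 45.6% of all protein-coding genes.

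Matrix genes had a distal exonic peak in 10 of 36 (27.8%, 15.8 to 44.0%), 9 of them in coding exons. Col3a1, of fibrillar type III collagen, held 6, with folds of 3.31 to 6.45, the strongest in exon 36 of 51. Col12a1 (5.64), Lamc1 (5.53), a laminin chain, Col5a2 (4.94), Lamb1 (4.77) and Col6a3 (4.23) followed, all with at most 18 fragments at their strongest peak. Among receptor tyrosine kinases there were 6 of 32 (18.8%, 8.89 to 35.3%): Met (6.53), Igf1r (5.76), Ddr2 (5.58), Fgfr1 (5.17), Ephb4 (4.76) and Erbb3 (3.87).

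Cell cycle and growth genes had one in 12 of 38 (31.6%, 19.1 to 47.5%), 8 of them with a 3' untranslated peak. After Mdm4, the strongest was in Irs1, which encodes the insulin receptor substrate (fold 9.20, 22 fragments, exon 1 of 2). Cdk6, a G1 kinase gene, held 7 with a highest fold of 7.80. Cdkn2b (7.34), Cdkn2c (6.53), both of them genes of CDK inhibitors, and Ccnd1 (6.51), of cyclin D1, followed. Chromatin regulators had one in 10 of 50 (20.0%, 11.2 to 33.0%), led by Smarcc1 (8.24), a BAF subunit, Asxl1 (6.08), Chd7 (5.22), Kmt2a (5.22), Ezh2 (4.36) and Smarcc2 (4.36). Signaling genes of the Notch, Wnt, Hedgehog and TGF-beta pathways had one in 9 of 36 (25.0%, 13.8 to 41.1%), with Lrp6 (8.14), a Wnt co-receptor, Axin1 (6.51), Notch1 (6.08), Ski (5.65), Notch2 (5.57) and Gli3 (4.46).

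The study chose 4 further lists itself, so they are no independent evidence. From the DepMap list, 22 of the matched genes had a distal exonic peak (20.2%, 13.7 to 28.7%), among them Dpf2, Tcf12 (9.36), an E-protein gene, Irs1 and Ufl1 (8.24), a UFM1 ligase gene. The St. Jude list had 3 of 42 (7.14%, 2.46 to 19.01%), Runx2 (5.65), Gli3 (4.46) and Creb5 (3.79), and the NIH list 2 of 26 (7.69%), among them Xbp1 (3.97). Endothelial transcription factors had 11 of 45 (24.4%, 14.2 to 38.7%), with Sox4 (7.37), Tsc22d1 (6.94), Pparg (6.82), Klf6 (6.22), Nr2f2 (6.17) and Mecom (6.08) at the top. Of these 4 lists, only the intervals of the DepMap and endothelial lists lay above the share of all protein-coding genes.

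Among markers, none of 14 myogenic and none of 14 immune genes held a distal exonic peak, where a count of 0, taken as fewer than 3, allows up to 21.4% of a list. Cd34 was the only one of 14 endothelial markers (fold 7.75), Col3a1 and Fn1 (3.86) were the only ones of 10 fibroblast markers, and Tpm1 (5.65) was the only one of 30 sarcomere genes. Of 24 matched growth-related long noncoding RNA genes, 7 held one, among them Mir100hg, Neat1, Pvt1 (8.67), Meg3 (8.21) and Kcnq1ot1 (5.65). Over all 3318 long noncoding RNA genes the share was 3.62%. In gene families taken by symbol, 5 of 19 Sox genes held one (26.3%, 11.8 to 48.8%). All 5 held it in 3' untranslated regions (Sox2, Sox4, Sox5, Sox9 and Sox12). Of 44 collagen genes 6 did (13.6%, 6.40 to 26.7%), and of 44 Fox genes 4 did (9.09%, 3.59 to 21.2%). Of 39 Hox genes 1 did, and of 69 protocadherin genes 1. Of 395 Zfp genes 16 did (4.05%, 2.51 to 6.48%), and of 1107 olfactory receptor genes none did, which by the same limit of 3 counts allows up to 0.271%.

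RefSeq lists few experimentally studied enhancers, and 6 of the 3072 peaks (0.195%) overlapped one, against 280 distal intronic peaks (0.474%). The coding exon peaks among them were in Vmp1 (chr11:86586238-86586830, fold 7.29, 17 fragments), which encodes an autophagy membrane protein, and in Bmp5 (chr9:75873257-75873409, fold 4.36, 9 fragments), a bone morphogenetic protein gene. The others were 3 noncoding exon peaks, all neighbors in the gene G630071F17Rik and so not separate loci, and 1 in a 5' untranslated region.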

How the data were processed

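CUT&RUN for H3K27ac was analyzed in 1 MCP tumor library from the deposited peak list. Per the methods of the study, the authors mapped reads with bowtie to mm10, discarded problematic regions and a region near Col19a1, and called peaks against IgG with an early MACS release. The labels name BWA, SAMtools and MACS2, with mm10 and dm6, and the deposited list is named for MACS2, so its threshold is not known here (largest q 0.0471). The deposited values are a score (the whole part of 10 times -log10 q in 100% of peaks), the fold enrichment as a ratio, and the -log10 p and -log10 q of each summit. These p-values and q-values are the authors' and were used only to rank and filter.

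Fragments over each summit were solved from fold and p as whole numbers with a library scale of 0.885. The fold was taken as scaled fragments plus 1 over background plus 1. All but 1 peak gave a whole number within 0.01 of -log10 p, 96.8% only 1, and at a scale 3% off 1.96% of a subset did. They are derived values, not read counts. Without molecular identifiers, intervals cover counting error only. The file gives no other depth.

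Exons and start sites (31601) came from 45756 curated RefSeq transcripts of GRCm38, whose coordinates are those of mm10. Where transcripts disagreed, coding came before 3' untranslated, 5' untranslated and noncoding, which concerned 6.28% of the peaks. Distal sequence was all sequence outside the 2 kb windows. Shares have Wilson and densities Poisson 95% intervals, and medians have exact order-statistic intervals. No p-value was computed, since peaks of 1 list are not replicates. Host genes were those with an exon of the class at the summit. Coding exons without a peak came from the transcript with the longest coding sequence of each gene, with windows centered on the exon. Reading frames were open in 1137 of 1139 coding exon peaks outside chromosome 18. Named are the 6 strongest peaks of each class, the 10 genes with most peaks and up to 6 genes of each list, beside those said to be chosen later, and some of these genes are not reported here. The families by symbol, the AP-1 sequences, the RefSeq enhancers and the neighbors of the window were added later. Members and lists were chosen with earlier results of these data known, and the study chose its 4 lists. Of the DepMap symbols 5 were not matched, and 1 of the 25 long noncoding RNA symbols. Steps were tested on simulated data. Python 3.11.15 was used with numpy 2.4.6, pandas 2.3.3, scipy 1.17.1, pysam 0.24.0 and intervaltree 3.1.0. The 10 alternatives were 8 listed beforehand and 2 chosen after seeing the data.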

Additional observations from a re-analysis of the deposited data

How the results depend on the processing

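No paired analysis was possible because 1 peak list was analyzed and no result came from a test between groups. A value was taken as moved when it left its 95% interval, or for the number of peaks when it changed by over 1.5 times. Of 80 values under 10 alternatives, 37 stayed and 43 moved, and the cause of a move was not tested unless the alternative itself makes it. The number of peaks, 3072, became 4918 with all RefSeq models, 1156 at a -log10 q of at least 5, 516 in the strongest 25% and 1989 without chromosomes 1, 6, 11 and 15.

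The coding share, 38.1%, became 22.7% with all RefSeq models, 33.7% with at least 50% of bases in exons, 35.5% with the class order turned round, 31.8% with GENCODE start sites and 40.6% outside masked repeats. The 3' untranslated share, 52.5%, became 49.7% with a 1 kb window, 39.1% with all models, 56.5% with at least 50% of bases, 48.96% with the class order turned round, 50% at the q threshold, 49.2% in the strongest 25%, 58.5% with GENCODE and 50.3% outside repeats. The noncoding share, 8.53%, became 10.1% and 7.11% with 1 kb and 5 kb windows, 31.05% with all models, 13.997% with the class order turned round, 9.69% at the q threshold, 11.4% in the strongest 25% and 9.80% without the 4 chromosomes.

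The ratio of coding exon to intron density, 0.641, was below 1 under all 10 alternatives and became 0.690 with all models, 0.531 with at least 50% of bases, 0.563 at the q threshold, 0.486 in the strongest 25%, 0.599 with GENCODE and 0.575 outside repeats. The ratio for 3' untranslated sequence, 1.04, fell on either side of 1: 1.13 with all models, 0.847 at the q threshold, 0.734 in the strongest 25%, 0.969 without the 4 chromosomes and 0.965 outside repeats. The median fold, 4.79, became 6.10 and 7.66 under the thresholds on q and on fold, which remove low folds. The share of peaks whose host gene had a promoter peak, 83.9%, became 80.8% and 86.2% with 1 kb and 5 kb windows. It was 78.8% with all models and 81.5% without the 4 chromosomes. At the q threshold it was 74.0% and in the strongest 25% 60.5%, where promoter peaks must pass the same threshold. Depth limits single peaks, since the median peak had 11 fragments.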
